A study of Mus musculus with 4 samples.

Results

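The genes described here encode the enzymes and transporters of sugar breakdown and storage: glycolysis, gluconeogenesis, glycogen turnover and the pentose phosphate pathway, with ketohexokinase (Khk) of fructose use. They were chosen by name, 45 genes in all, and a probe set of the array counted as a member's when the platform annotation gave it that gene's symbol and no other. Of the 45, 41 had such a probe set, among 18194 genes on the array that did, and 30 entered the test, among 8626 genes tested. RNA came from small intestinal epithelium of mouse embryos at E15.5, a day of gestation, and was hybridised to 4 Affymetrix Mouse 430_2 arrays. The 2 knockout arrays (Yy1_KO) carried RNA from embryos of genotype Yy1f/f; Shh-Cre, in which the Cre recombinase made from the Shh locus deletes floxed Yy1 in gut endoderm. The 2 control arrays (WT) carried RNA from littermates of genotype YY1f/f, which have the floxed alleles and no Cre, so that an effect of the Cre allele and one of the loss of Yy1 cannot be told apart. Each sample pooled up to 2 embryos of 1 genotype, and p-values rest on the spread between these pools, and its cells were enriched by magnetic selection for Epcam from gut running from the stomach to the caecum. Yy1 is a zinc finger transcription factor, and the study's title asks about aerobic metabolism in the forming intestine.

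Glycolysis splits glucose into pyruvate in the cytosol, with hexokinase, phosphofructokinase and pyruvate kinase as its irreversible steps, and lactate dehydrogenase turns pyruvate into lactate or back. Gluconeogenesis runs the pathway in reverse through its own bypass enzymes, glycogen stores glucose as a branched polymer, and the pentose phosphate pathway yields NADPH and ribose for lipid and nucleotide synthesis. Villus enterocytes of the small intestine take up dietary sugars, and proliferating embryonic epithelium is known to use glycolysis.

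Yy1 RNA was at 7.27 and 6.81 on the knockout arrays, against 8.79 and 8.82 on the control arrays, in log2 values of GCRMA, the background correction and normalization used by the authors. This change of -1.77 (SE 0.17, limma adjusted p = 0.00209) had an adjusted p of 0.0504 without control 2. Shh RNA was at 5.55 and 5.36 on the knockout arrays and 7.42 and 7.38 on the control arrays. All 16 epithelial markers were tested, of which 4 fell and 4 rose, and their median log2 change was -0.14, with Epcam itself at 11.01 and 11.15 on the knockout arrays and 11.50 and 11.54 on the control arrays. Markers of other cells moved with the genotype: all 11 tested of 15 mesenchyme genes rose (median 2.24), as did all 7 tested of 9 smooth muscle genes (median 3.25), all 6 tested of 8 leukocyte genes (median 1.81) and both tested of 8 erythroid genes. Both control arrays lay below the filter in 6 of the 11 mesenchyme genes, 1 of the 7 smooth muscle genes, 3 of the 6 leukocyte genes, 1 of the 2 erythroid genes and the stomach gene named next, so that for these only a rise could be tested. The summed linear signal of the mesenchyme list was 2616 and 2377 on the knockout arrays, against 764 and 626 on the control arrays. Of 5 tested pancreas and liver genes 3 rose and 1 fell, the 1 tested stomach gene, Gkn1, rose, and none of 8 endothelial and 5 neural genes on the array passed the intensity filter, a log2 value of at least 4 on at least 2 arrays. As a measure of RNA quality, the log2 difference between the 3′ and 5′ control probe sets of Gapdh was 1.60 and 1.65 on the knockout arrays and 1.31 and 1.37 on the control arrays. Gapdh is itself a member, and the same measure of actin (Actb) was -0.08 and -0.07 in the knockout and -0.10 and -0.13 in the control. The part of cell mixture and RNA quality in the results that follow was not tested, and in bulk RNA fewer cells of a type and less RNA per cell cannot be told apart.

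Sugar metabolism genes were mostly lower in the knockout. Of the 30 tested members 21 fell, 3 rose and 6 did not pass an adjusted p under 0.05 in limma, with a median log2 change of -0.57. Over all 8626 genes tested, 21.7% were lower and 17.9% higher by the same rule, with a median of -0.03. At least 2-fold falls were seen in 6 members, Slc16a3, Pfkp, Fbp2, Rpia, Pfkl and Pgm1, where 7.19% of all genes fell that far. Of all genes 5.94% rose 2-fold, a share at which few of 30 members would, and no member did. The arrays of the genotypes did not overlap in 22 members that were lower and 4 that were higher, against 39.6% and 35.4% of all genes. The median member lay 0.58 and 0.51 under the control mean on the 2 knockout arrays. For Pfkm and Pfkfb3 both knockout arrays, and for Pck1 both control arrays, were below the filter value of 4, so that only the observed direction could have been tested. With 1 array left out, 5 to 8 members were lower and 0 or 1 higher, and only 5 of the 24 calls, those of Slc16a3, Pfkl, Pfkp, Pgk1 and Fbp2, held in each of these 4 fits. When probe sets of any brightness were tested, the calls of Pgk1 (adjusted p = 0.0459) and Pgam1 (0.0386) passed and the other 22 did not, among them Slc16a3 (0.0777), Pfkl (0.0579), Pfkp (0.128) and Fbp2 (0.0919).

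**Figure D1:**
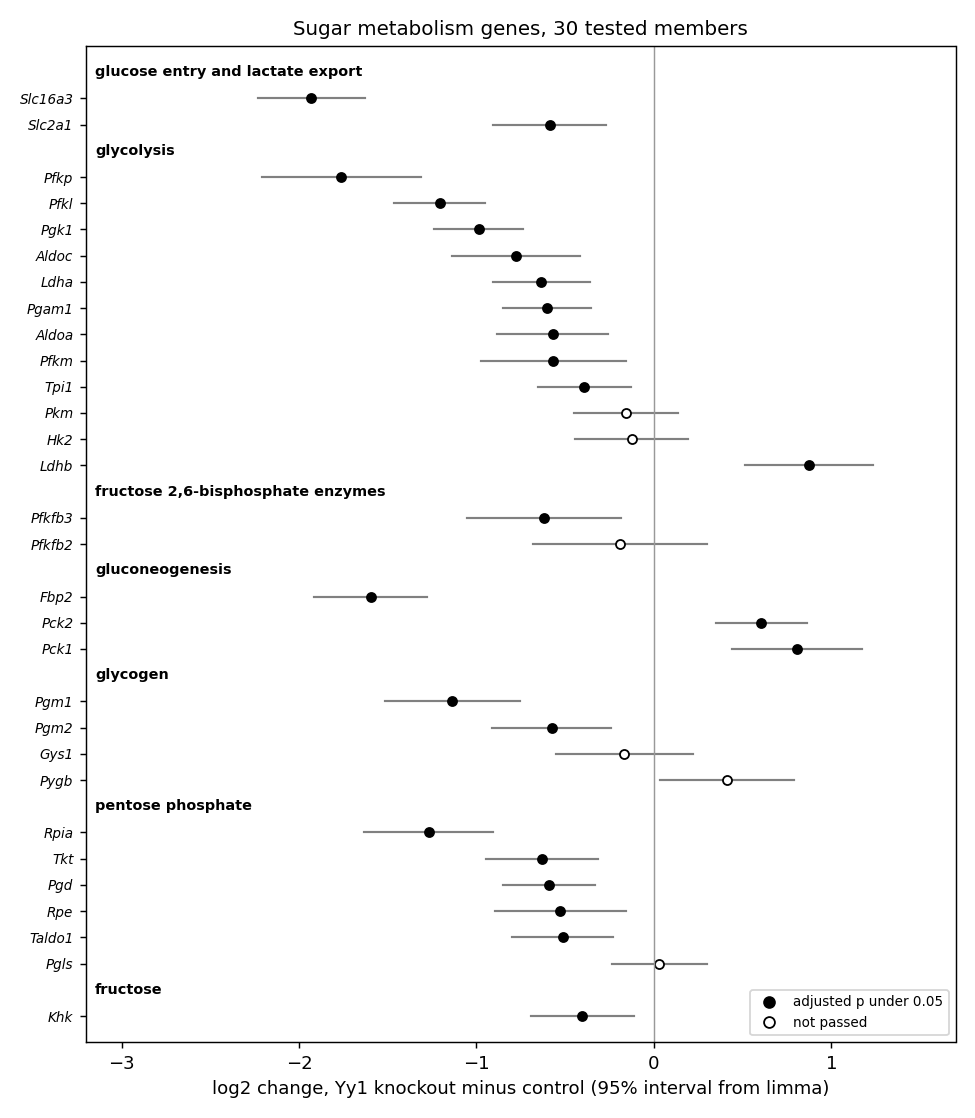
Log2 change of the 30 tested members, Yy1 knockout minus control, on the horizontal axis, grouped by role. Points are limma estimates from 2 arrays a genotype, bars their 95% intervals, and filled points passed an adjusted p under 0.05. Slc16a3 lies lowest at -1.93 and Ldhb highest at 0.87.

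**Figure D2:**
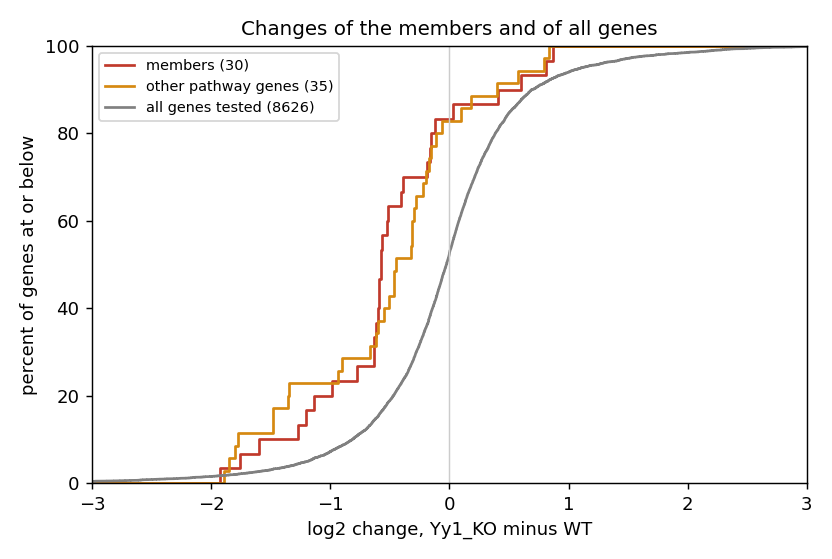
Cumulative percent of genes (vertical axis) at or below a given log2 change of Yy1_KO minus WT (horizontal axis) for the 30 tested members, 35 tested genes of other pathway lists and all 8626 genes tested. The medians are -0.57, -0.45 and -0.03.

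The promoters of 6 members are shown because they cover 3 large falls (Slc16a3, Pfkp and Fbp2), the central step of Pgk1 and, in the lactate dehydrogenase pair, changes in opposite directions. They were chosen after their values were seen. Each window spans 250 bases before to 50 after the annotated start, from RefSeq on GRCm38.p6, 5′ to 3′ along the gene. All 45 members had at least 1 window. Capitals mark matches on either strand to ACGTG or GCGTG, the core that the hypoxia factor HIF1 binds, GCCAT, the core of the Yy1 motif, and CACGTG, the E-box, which holds ACGTG once on each strand.
Slc16a3, chr11:120948817-120949116, plus strand: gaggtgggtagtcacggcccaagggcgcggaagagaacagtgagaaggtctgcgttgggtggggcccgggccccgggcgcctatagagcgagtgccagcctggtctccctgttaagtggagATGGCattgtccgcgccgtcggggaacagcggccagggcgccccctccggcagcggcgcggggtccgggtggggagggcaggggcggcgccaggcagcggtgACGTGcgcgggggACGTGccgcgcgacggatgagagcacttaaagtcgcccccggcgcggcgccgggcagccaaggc
Pfkp, chr13:6648722-6649021, minus strand: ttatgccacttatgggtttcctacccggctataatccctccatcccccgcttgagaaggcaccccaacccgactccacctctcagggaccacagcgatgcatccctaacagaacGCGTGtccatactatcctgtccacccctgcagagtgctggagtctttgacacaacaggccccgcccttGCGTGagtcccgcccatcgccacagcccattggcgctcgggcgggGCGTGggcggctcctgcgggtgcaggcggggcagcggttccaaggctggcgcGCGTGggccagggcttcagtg
Pgk1, chrX:106186850-106187149, plus strand: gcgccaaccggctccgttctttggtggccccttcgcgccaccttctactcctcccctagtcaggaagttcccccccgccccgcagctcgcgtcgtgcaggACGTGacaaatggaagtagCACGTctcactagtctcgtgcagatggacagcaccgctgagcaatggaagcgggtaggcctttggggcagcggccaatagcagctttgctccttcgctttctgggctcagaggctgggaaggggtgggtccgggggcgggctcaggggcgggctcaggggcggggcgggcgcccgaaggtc
Ldha (the first of 2 windows), chr7:46845554-46845853, plus strand: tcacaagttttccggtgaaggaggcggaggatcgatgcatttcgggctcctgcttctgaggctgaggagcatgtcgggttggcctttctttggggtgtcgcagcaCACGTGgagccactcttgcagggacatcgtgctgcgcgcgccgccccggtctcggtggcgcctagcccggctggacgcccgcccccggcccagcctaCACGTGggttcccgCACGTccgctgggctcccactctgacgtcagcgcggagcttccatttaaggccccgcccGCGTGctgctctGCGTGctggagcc
Ldhb, chr6:142507908-142508207, minus strand: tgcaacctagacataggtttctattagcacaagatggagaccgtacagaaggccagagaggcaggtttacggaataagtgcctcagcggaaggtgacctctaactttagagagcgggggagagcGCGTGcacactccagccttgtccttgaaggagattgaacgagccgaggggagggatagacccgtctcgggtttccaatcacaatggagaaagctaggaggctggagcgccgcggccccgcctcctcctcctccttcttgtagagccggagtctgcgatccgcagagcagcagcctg
Fbp2, chr13:62858351-62858650, minus strand: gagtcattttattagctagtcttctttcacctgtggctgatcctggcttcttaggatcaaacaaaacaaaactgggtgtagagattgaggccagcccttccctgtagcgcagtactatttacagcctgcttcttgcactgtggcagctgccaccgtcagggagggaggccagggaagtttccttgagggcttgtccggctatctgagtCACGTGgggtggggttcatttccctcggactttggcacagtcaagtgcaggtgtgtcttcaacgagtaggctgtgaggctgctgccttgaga
The Slc16a3 window held 2 matches to ACGTG and 1 to GCCAT, that of Pfkp 4 matches to GCGTG, and that of Pgk1 2 matches to ACGTG. The Ldha window held 5 matches to ACGTG, 4 of them in 2 E-boxes, and 2 to GCGTG, where that of Ldhb held a single GCGTG. The Fbp2 window held 1 E-box and none of GCGTG or GCCAT. Among the 21 members that fell, 19 (90.5%) had ACGTG or GCGTG in a window, against 70.1% of the 7063 tested genes matched to a window. By core, 13 (61.9%) had ACGTG, against 31.0% of those genes, and 12 (57.1%) had GCGTG, against 58.3%. The E-box, each match of which also counts as ACGTG, stood in windows of 5 members that fell (23.8%), against 12.6%. GCCAT stood in windows of 11 members that fell (52.4%), against 44.7%. Of the 6 that did not pass, 4 had ACGTG, 3 GCGTG and 1 GCCAT, and of the 3 that rose, 0, 2 and 2. Counted by window rather than gene, ACGTG stood in 53.3% of 30 windows of members that fell, 26.7% of 9021 windows of tested genes and 19.6% of all 32851 windows, GCGTG in 15 of the 30, 52.4% and 32.4%, and GCCAT in 43.3%, 39.4% and 40.5%. A match describes these letters and is not a binding site.

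Both members that carry glucose in and lactate out were lower. Slc16a3, the lactate exporter MCT4, had log2 values of 4.48 and 4.56 on the knockout arrays, against 6.56 and 6.35 on the control arrays. Both knockout arrays were about 2 log2 units under both controls. This left 26.2% of the control signal (log2 change -1.93, 95% interval -2.23 to -1.63, limma adjusted p = 0.000924), and the call held with each array left out (adjusted p up to 0.0341). Slc2a1, the glucose transporter GLUT1, was at 9.67 and 9.92 in the knockout and 10.35 and 10.42 in the control. The groups did not overlap, and the signal was 66.5% of control (log2 change -0.59, SE 0.13, adjusted p = 0.0190). Its other 2 probe sets also fell, with changes down to -0.75. Leaving out any array ended the Slc2a1 call (0.0932 and 0.128 without control 1 or 2, 0.0766 and 0.0537 without knockout 1 or 2).

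Of 19 glycolysis members 12 were tested. Of these, 9 fell, 1 rose and 2 did not pass, where 21.7% of all genes tested were lower and 17.9% higher. The falls covered phosphofructokinase, aldolase, triose phosphate isomerase, phosphoglycerate kinase, phosphoglycerate mutase and the A subunit of lactate dehydrogenase. Pfkp, the platelet-type subunit of phosphofructokinase, which commits sugar to glycolysis, was at 6.22 and 6.53 in the knockout and 7.95 and 8.32 in the control. Pfkl, its liver-type subunit, was at 7.65 and 7.71 in the knockout and 8.91 and 8.87 in the control. The knockout arrays of both genes lay over 1 log2 unit under the controls, with 29.5% (log2 change -1.76, SE 0.18, limma adjusted p = 0.00232) and 43.3% (-1.21, SE 0.10, adjusted p = 0.00152) of the control signal. Pfkm, the muscle-type subunit, was dim, at 3.72 and 3.98 in the knockout and 4.25 and 4.58 in the control (change -0.57, adjusted p = 0.0442).

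Pgk1, phosphoglycerate kinase, makes the first ATP of the payoff phase. It was at 9.96 and 9.91 on the knockout arrays, against 10.92 and 10.93 on the control arrays. Replicates differed by under 0.05 and genotypes by 0.99, which left 50.4% of the control signal (SE 0.10, limma adjusted p = 0.00234). Pgam1, the mutase that follows it, was at 10.10 and 10.11 in the knockout and 10.71 and 10.70 in the control. Its signal was 65.9% of control (log2 change -0.60, SE 0.10, adjusted p = 0.00878). Aldoa and Aldoc, aldolases that split fructose 1,6-bisphosphate, were both lower. Aldoa was at 10.44 and 10.69 in the knockout and 11.13 and 11.14 in the control, and Aldoc at 5.32 and 5.16 in the knockout and 5.87 and 6.16 in the control. Their knockout arrays lay under both controls, with 67.3% (adjusted p = 0.0199) and 58.3% (adjusted p = 0.0120) of the control signal. Tpi1, triose phosphate isomerase, changed least among those that fell, at 9.71 and 9.79 in the knockout and 10.11 and 10.18 in the control (76.2% of control, log2 change -0.39, SE 0.10, adjusted p = 0.0359). Probe sets of the _x_at type, the kind that stands for Aldoa and also for Pgd and Tkt below, share sequence with other transcripts, and their values are less certain.

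Gapdh was measured by 3 control probe sets only, at the 3′ end, middle and 5′ end of its transcript, since 3 others carry several gene symbols in the platform annotation. In a limma fit that included control probe sets, the middle one was at 10.49 and 10.69 on the knockout arrays and 11.19 and 11.15 on the control arrays (change -0.58, SE 0.12, adjusted p = 0.0159). The 5′ probe set changed by -0.54 (SE 0.11, adjusted p = 0.0172) and the brightest, at the 3′ end, by -0.25 (SE 0.11, adjusted p = 0.145). All 3 were lower on both knockout arrays than on both controls, and the ends of this transcript differed as given above.

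Hk2 and Pkm, of the first and last irreversible steps, did not pass. Hk2, an inducible hexokinase, was at 6.43 and 6.45 in the knockout and 6.69 and 6.43 in the control. Its arrays overlapped, and the 95% interval of its log2 change ran from -0.45 to 0.19 (limma adjusted p = 0.478). Pkm, pyruvate kinase M, was at 9.99 and 10.18 in the knockout and 10.27 and 10.21 in the control. Both knockout arrays were slightly lower, with an interval of -0.45 to 0.14 (adjusted p = 0.337). Both intervals leave out a 2-fold fall but hold one of the size seen in Tpi1.

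Ldha and Ldhb, the subunits of lactate dehydrogenase, changed in opposite directions. Ldha, the subunit prevailing in muscle, was at 10.59 and 10.70 in the knockout and 11.23 and 11.33 in the control. Both knockout arrays were lower (64.4% of control, log2 change -0.64, SE 0.11, limma adjusted p = 0.00975). Ldhb, the subunit prevailing in heart, was at 6.43 and 6.69 in the knockout and 5.80 and 5.58 in the control. Both knockout arrays were higher (1.83-fold, log2 change 0.87, SE 0.14, adjusted p = 0.00873), and Ldhb was the 1 glycolysis member that rose. Its 3 further tested probe sets were at 0.51, 0.60 and 0.23, and the last did not pass (adjusted p = 0.246).

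Of the 10 glycolysis calls, those of Pfkl, Pfkp and Pgk1 held with each array left out in turn (limma adjusted p up to 0.0439). The other 7 did not pass without control 2 (0.0704 to 0.212) or knockout 2 (0.0515 to 0.111). Without control 1 only Aldoc of these passed (others 0.0510 to 0.107), and without knockout 1 only Ldhb (others 0.0521 to 0.197). No sign changed in these fits.

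**Figure D3:**
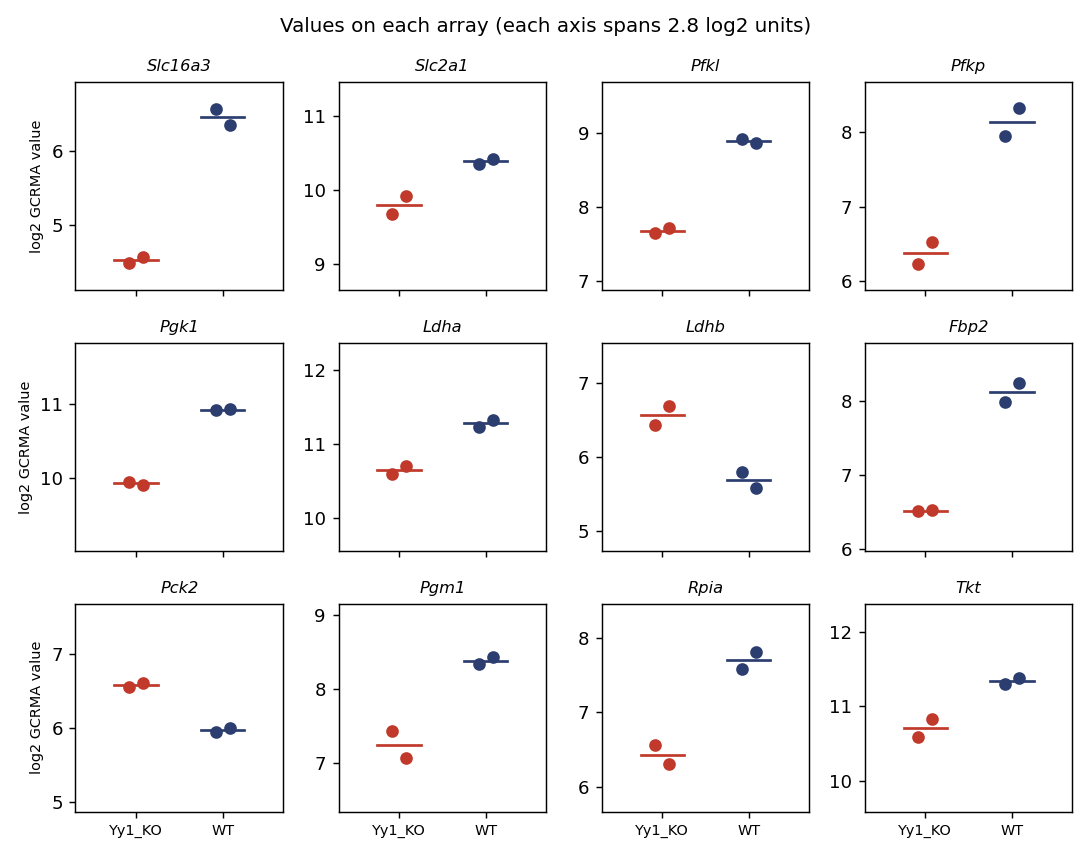
Log2 GCRMA values (vertical axes) on each array for 12 members, with Yy1_KO arrays left of WT arrays. Points are arrays, lines are means of 2, and each axis spans the same 2.8 log2 units. Ldhb and Pck2 were higher on both knockout arrays and the other 10 genes lower.

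The Pfkfb enzymes make and degrade fructose 2,6-bisphosphate, the activator of phosphofructokinase. Pfkfb3, known for its strong kinase side, was at 3.79 and 3.38 in the knockout and 4.10 and 4.32 in the control. The groups did not overlap (log2 change -0.62, SE 0.17, limma adjusted p = 0.0400), on a probe set near the filter. That call did not pass without control 1 (0.119), control 2 (0.222), knockout 1 (0.0541) or knockout 2 (0.160). Pfkfb2 was at 5.48 and 5.61 in the knockout and 5.47 and 6.003 in the control on its brightest probe set. These arrays overlapped (change -0.19, adjusted p = 0.483), while a dimmer Pfkfb2 probe set, at 3.55 and 3.49 in the knockout and 4.20 and 4.73 in the control, fell by 0.95 (adjusted p = 0.0160). Both knockout arrays of that probe set were below the filter, so that only a fall could be tested.

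Gluconeogenesis members went both ways. Fbp2, a fructose 1,6-bisphosphatase best known from muscle, was at 6.51 and 6.53 on the knockout arrays, against 7.99 and 8.24 on the control arrays. Both knockout arrays lay well under both controls, at 33.1% of the control signal (log2 change -1.60, SE 0.13, limma adjusted p = 0.00132), with adjusted p up to 0.0377 when an array was left out. Fbp1, the liver enzyme of the same step, was at the floor of the arrays on its probe set. Pck2, the mitochondrial phosphoenolpyruvate carboxykinase, was at 6.55 and 6.61 in the knockout and 5.94 and 6.01 in the control. Both knockout arrays were higher (1.52-fold, log2 change 0.60, SE 0.10, adjusted p = 0.00943). Pck1, the cytosolic form, was at 4.11 and 4.16 in the knockout and 3.15 and 3.50 in the control (log2 change 0.81, SE 0.15, adjusted p = 0.0114). It was near the filter in the knockout and under it in the control, and its 2 other probe sets lay at or near the floor. Without control 1, knockout 1 or knockout 2 the Pck1 call did not pass (0.0572, 0.0784 and 0.0985), and that of Pck2 did not pass without any 1 array (0.0510 to 0.0687). Glucose 6-phosphatase (G6pc), which releases free glucose, was at the floor on all 4 arrays, and pyruvate carboxylase (Pcx) was under the filter on its probe set and on 4 control probe sets.

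Of the genes listed under glycogen the 2 named phosphoglucomutase fell. Pgm1, which moves the phosphate of glucose between positions on the way to and from glycogen, was at 7.43 and 7.06 in the knockout and 8.33 and 8.43 in the control. The knockout arrays lay about 1 log2 unit or more under the controls (45.5% of control, log2 change -1.14, SE 0.15, limma adjusted p = 0.00483). Pgm2 was at 4.96 and 4.92 in the knockout and 5.37 and 5.66 in the control (67.1% of control, change -0.58, SE 0.13, adjusted p = 0.0241). Pgm1 did not pass without control 1 (0.0531) or control 2 (0.0708), and Pgm2 without control 2 (0.113), knockout 1 (0.107) or knockout 2 (0.136). Pygb, the brain-type glycogen phosphorylase, was at 6.68 and 6.33 in the knockout and 6.04 and 6.16 in the control. Its knockout arrays were the higher ones, and the change of 0.41 did not pass (95% interval 0.03 to 0.79, adjusted p = 0.0840). Gys1, glycogen synthase, was dim and overlapped, at 3.76 and 4.12 in the knockout and 4.04 and 4.17 in the control (change -0.17, adjusted p = 0.435). The branching enzyme Gbe1 and the liver phosphorylase Pygl were under the filter.

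In the pentose phosphate pathway 5 of 6 tested members fell, where 21.7% of all genes tested were lower. G6pdx, the other listed member, had no probe set of that symbol alone and was not analysed. Rpia, ribose 5-phosphate isomerase, was at 6.56 and 6.31 on the knockout arrays, against 7.58 and 7.82 on the control arrays. Both knockout arrays lay over 1 log2 unit lower (41.5% of control, log2 change -1.27, SE 0.14, limma adjusted p = 0.00320). Pgd, the second NADPH-making dehydrogenase, was at 9.45 and 9.49 in the knockout and 10.01 and 10.11 in the control. The groups did not overlap (66.4% of control, change -0.59, SE 0.10, adjusted p = 0.0106), and its 3 other probe sets fell by up to 1.06. Tkt, transketolase, was at 10.59 and 10.83 in the knockout and 11.30 and 11.38 in the control (64.6% of control, adjusted p = 0.0149). Its other tested probe set, not of the _x_at type, changed by -0.86. Taldo1, transaldolase, was at 7.19 and 7.20 in the knockout and 7.62 and 7.80 in the control (70.1% of control, adjusted p = 0.0207). Both enzymes link the pathway back to glycolysis, and for both the knockout arrays lay under the controls. Rpe, ribulose phosphate epimerase, was at 6.33 and 6.02 in the knockout and 6.61 and 6.79 in the control (69.4% of control, adjusted p = 0.0405). Pgls, the lactonase of the oxidative branch, was at 7.40 and 7.42 in the knockout and 7.32 and 7.45 in the control. Its arrays overlapped, with an interval of -0.24 to 0.30 (adjusted p = 0.844). Rpia did not pass without control 2 (0.0525), and the other 4 did not pass without control 1 (0.0563 to 0.117), control 2 (0.0826 to 0.212), knockout 1 (0.0605 to 0.0910) or knockout 2 (0.0509 to 0.163).

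Khk, ketohexokinase, which opens fructose breakdown, was at 4.74 and 4.55 on the knockout arrays and 5.07 and 5.03 on the control arrays. The groups did not overlap (75.6% of control, log2 change -0.40, SE 0.12, limma adjusted p = 0.0445). The call did not pass without control 1 (0.170), control 2 (0.158), knockout 1 (0.0670) or knockout 2 (0.153).

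Isoforms of a step were compared by their changes, not by the levels of different probe sets. Pgm1 and Pgm2 were paired by their shared name. The within-array log2 difference between Ldhb and Ldha was -4.16 and -4.01 on the knockout arrays, against -5.43 and -5.76 on the control arrays, a shift of 1.51 toward Ldhb. That of Pfkp over Pfkm was 2.50 and 2.54 in the knockout and 3.69 and 3.74 in the control, a shift of -1.19. Pfkp over Pfkl shifted by -0.55, Pfkm over Pfkl by 0.64 and Pgm2 over Pgm1 by 0.56. In each of these 5 pairs the genotypes did not overlap, but this held in every pair other than Aldoc over Aldoa. Among all single genes tested, the arrays did not overlap in 39.6% that were lower and 35.4% that were higher. Shifts were smaller for Pfkfb3 over Pfkfb2 (-0.43), Aldoc over Aldoa (-0.21) and Pck2 over Pck1 (-0.20), and the Aldoc over Aldoa arrays overlapped. For 8 pairs of 2 against 2 arrays, a two-sided exact permutation test cannot give a p under 0.333. That was its value for 7 pairs (0.381 adjusted over the 8), so that none could pass this test. With the mean of a gene's tested probe sets, Ldhb over Ldha shifted by 1.19 and Pfkp over Pfkm by -0.84. Pfkp over Pfkl then shifted by -0.25 and Pfkfb3 over Pfkfb2 by -0.05. With 1 array left out, Pfkp over Pfkl was -0.34 without control 2, Pfkfb3 over Pfkfb2 ran from -0.70 without knockout 1 to -0.16 without knockout 2, Aldoc over Aldoa from -0.41 without knockout 1 to -0.0031 without knockout 2, and Pck2 over Pck1 from -0.35 without control 2 to -0.06 without control 1. Pfkm, Pfkfb3 and Pck1 lay near the filter. The shifts of Pfkp over Pfkm and Pfkm over Pfkl rest on Pfkm, whose knockout arrays were both below it. With 16 added before the log, Pfkm changed by -0.30 and did not pass (limma adjusted p = 0.0667). Those 2 shifts were then -1.29 and 0.85.

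**Figure D4:**
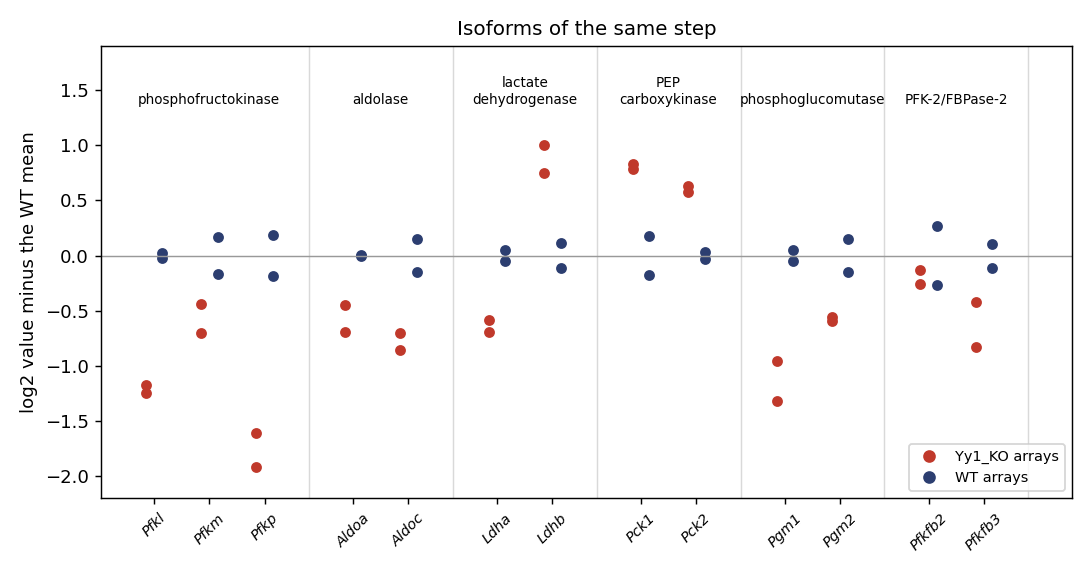
Log2 value on each array minus the gene's WT mean (vertical axis) for isoforms of 6 steps, with Yy1_KO arrays left of WT arrays for each gene. Pgm1 and Pgm2 are paired by their shared name. Ldhb, Pck1 and Pck2 lie above 0 on both knockout arrays, and both phosphofructokinase subunits with clear signal, Pfkl and Pfkp, lie more than 1 unit below.

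The 10 members with no probe set past the filter were Hk1, Pgam2, Eno2, Eno3, Pfkfb4, Fbp1, G6pc, Pcx, Gbe1 and Pygl, whose 11 probe sets ranged from 2.36 to 4.01. Gpi1, Eno1, Pfkfb1 and G6pdx had no probe set of that symbol alone and were not analysed here. Across the tested members, 11 had 22 further tested probe sets, and all 22 differed in the same direction as the brightest one, with 20 past an adjusted p under 0.05 in limma. In 3 of them, 2 of Pfkp and 1 of Pfkfb2, both knockout arrays were below the filter and only a fall could be tested, and 17 of the other 19 passed. All further probe sets of Aldoa and Pgk1, and some of Tpi1, Ldhb and Pgd, were of the less certain _x_at type. How often further probe sets go the same way over all genes was not counted. The sizes varied: Pfkp ranged from -1.76 to -0.71, Pgd from -1.06 to -0.53 and Aldoa from -0.87 to -0.22 between probe sets. The authors' deposited table lists 2156 probe sets that changed by at least 1 log2 unit. It held 9 probe sets of 7 members, all of them lower: Slc16a3, Fbp2, Pfkl, Pfkp, Pgd, Rpia and Pgm1. How many of the 2156 were lower was not counted. In the fit here 7.19% of all genes fell at least 2-fold and 5.94% rose that far. The heading of the authors' table names the wild type first, but its signs are those of knockout minus control. For Slc16a3 the authors' deposited table gives an adjusted p of 0.000231.

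**Figure D5:**
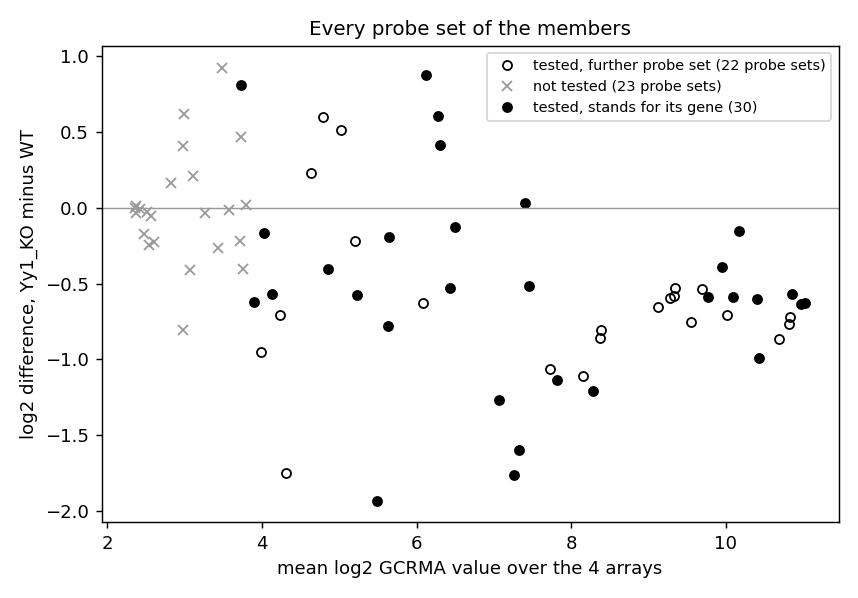
Log2 difference of Yy1_KO minus WT (vertical axis) against mean log2 value over 4 arrays (horizontal axis) for each non-control probe set of the members. Filled points stand for their gene, open points are the 22 further tested probe sets and crosses the 23 not tested. Every probe set with a mean above 8 lies below 0. Many of these share a gene, and the share of all probe sets this bright that lie below 0 was not taken.

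Other genes of the same pathways, listed by role, gave 16 lower, 3 higher and 16 not passed of 35 tested among 71, with a median of -0.45. Over all genes tested, 21.7% were lower and 17.9% higher. Of 3 transport genes tested, Slc5a1, the sodium glucose cotransporter of the brush border, was at 5.20 and 5.17 in the knockout and 6.73 and 7.25 in the control (log2 change -1.80, limma adjusted p = 0.00251). Slc16a1, the monocarboxylate transporter MCT1, was at 6.55 and 6.19 in the knockout and 8.10 and 8.19 in the control (-1.77, adjusted p = 0.00152). Both carriers were lower on both knockout arrays than on both controls. Of 6 further glycolysis genes 4 fell and 1 rose. Hkdc1, a hexokinase domain protein, changed by -1.89 (SE 0.20), Galm, the aldose mutarotase, by -1.48 (SE 0.17), and Pklr, the liver and red cell pyruvate kinase, by -1.35 (SE 0.22), where Hk2 and Pkm did not pass. Tkfc, which phosphorylates the glyceraldehyde from fructose, was the 1 further fructose gene tested (-1.35, SE 0.24).

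Of 5 further gluconeogenesis genes Got1, the cytosolic aspartate aminotransferase, fell (-0.93) and Gpd2, the mitochondrial glycerol phosphate dehydrogenase, rose (0.80). Of 8 further glycogen genes 1 fell, Ppp1r3b, a subunit that directs a phosphatase to glycogen (-1.49, with both knockout arrays under the filter), and 1 rose, Gyg, the glycogenin primer (0.84). In both the gluconeogenesis and the glycogen list these counts were small and near the shares of all genes tested (21.7% lower and 17.9% higher). Of 7 further pentose phosphate genes 4 fell and none rose, by limma, with none higher at an unadjusted p under 0.05 either. They included H6pd, the hexose phosphate dehydrogenase of the endoplasmic reticulum (-0.90), Prpsap2, a partner of ribose phosphate pyrophosphokinase (-0.62, with both knockout arrays under the filter), and Dera, a deoxyribose phosphate aldolase (-0.55). Of 5 galactose, mannose and hexosamine genes 3 fell, with Gnpda1, a glucosamine phosphate deaminase, at -1.85, both knockout arrays under the filter, and the phosphomannomutase Pmm2 at -0.67. Of these 19 calls, leaving out control 1 ended 9 (0.0575 to 0.179), control 2 ended 12 (0.0632 to 0.159), knockout 1 ended 9 (0.0605 to 0.125) and knockout 2 ended 15 (0.0538 to 0.173). Those of Slc16a1 and Gnpda1 held in each fit.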

How the data were processed

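RNA of 2 knockout and 2 control samples was measured on 4 arrays. The deposited values are log2 expression per probe set, made by the authors with GCRMA per the submitters' processing notes, with the version not given in the sources used here. A second deposited table holds the authors' log2 fold changes and p-values, from limma per the submitters' processing notes. Its moderated t and log odds are limma scores of the authors per the file headers and were not used here. GCRMA estimates background from probe sequence and compresses dim signals, and the lowest value was 2.36 on each array.

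Of 45101 probe sets, 34945 carried 1 gene symbol in the platform annotation, 932 several and 9160 none, and 64 controls were left out. Probe sets with a log2 value of at least 4 on at least 2 arrays were tested (16887). The change, knockout minus control, was fitted with limma 3.58.1 in R 4.3.3 on all 4 arrays, and p-values were adjusted by Benjamini-Hochberg over all probe sets tested. The brightest tested probe set stood for a gene. The procedure was tested on simulated data. The number of arrays limits precision, and the median SE was 0.122. Arrays correlated at 0.989 and 0.990 within a genotype and 0.905 to 0.925 between them.

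Members and lists were chosen with earlier results of these data known. Array values are given for members past the threshold without overlap between genotypes (up to the 6 largest changes in a role group), for isoforms of 1 step and for single-gene groups, and values of the other tested members were added after they were seen. Up to 3 genes of each further pathway list are named, by size of change. The sample labels do not say what the replicate numbers mark, and the main fit did not pair the samples. Deviations of same-numbered arrays correlated at -0.31, which cannot settle whether samples were paired, for example by litter under other numbering. Alternatives were the filter, an added constant, centring, quantile normalization, the variance model, a replicate block, the choice of probe set and leaving out each array.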

Additional observations from a re-analysis of the deposited data

How the results depend on the processing

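Without a filter on low values, 40 members were tested and 2 were lower and 0 higher by limma (18 and 3 at an unadjusted p under 0.05), with 48 lower and 39 higher among all genes, and the median member changed by -0.46. At an adjusted p under 0.01, 9 members were lower and 2 higher, with 893 lower (10.4%) and 718 higher among the 8626 genes. Leaving out 1 array gave 5 to 8 lower and 0 to 1 higher members (16 to 21 and 3 to 4 at an unadjusted p under 0.05), and medians of -0.62 to -0.48. Over all genes, 444 to 896 were then lower and 353 to 827 higher. With 16 added before the log the median was -0.46, and the shift of Pck2 over Pck1 turned to 0.14. Quantile normalization gave a median of -0.49, with a median of 0.02 over all genes. The change of Tpi1, a bright member, was then -0.29 and did not pass (limma adjusted p = 0.0590). With the replicate number as a replicate block, 17 members were lower and 3 higher, and with the crossed numbers, a pairing chosen after seeing the data, 19 and 4. Of all genes, 18.4% and 22.3% were lower in these 2 fits. The other settings gave 16 to 21 lower and 2 to 4 higher. The lowest counts came from a filter at a log2 value of 6, where only 22 members were tested and 28.1% of all genes were lower. Of 354 member values under these alternatives, 240 kept their direction and side of the threshold, 114 kept only the direction and 0 reversed. With an array left out, a lone array is assumed to vary like the other genotype. The causes of these differences were not tested. The 10 members under the filter had values up to 4.01 and were tested only in the fit without a filter.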
